A study of Mus musculus with 6 samples.

Results

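The nuclear receptors of the REV-ERB and ROR families that were examined are encoded by Nr1d1 (REV-ERB alpha), Nr1d2 (REV-ERB beta) and Rora (ROR alpha). They were taken by symbol from the gene rows of the single-cell count tables, which gave 3 of 31053 genes. REV-ERB proteins are haem-binding repressors that recruit the NCoR corepressor and its histone deacetylase HDAC3, and ROR proteins are activators that bind the same DNA element. In the circadian clock, BMAL1 (encoded by Arntl) and CLOCK drive Nr1d1 and Nr1d2 through E-box elements, REV-ERB represses Arntl, and ROR activates it. Outside the clock, Rora is known for its part in IL-17-producing T cells, innate lymphocytes and regulatory T cells of tissues.

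Transcripts were counted by droplet sequencing of the 3' ends of mRNA in material labelled as YUMM2.1, a mouse melanoma line, carrying either an empty vector (Empty vector group) or wild-type Bmal1 (Bmal1 WT group). Each group was 1 droplet library pooling 3 replicates that were told apart by hashtag antibodies, h1, h7 and h8 for Empty vector and h3, h5 and h9 for Bmal1 WT. The sources used here do not give the promoter of the vector, whether the recipient cells still held their own Bmal1, whether the cells came from culture or a tumour, or the time of collection. Immune-like cells, by the marker rule given below, were 83.4% of the filtered Empty vector cells and 58.8% of the Bmal1 WT cells. Fibroblast-like cells were 3.67% and 11.1%, so most of the cells counted were not melanoma-like. Group and droplet channel coincide, so that the effect of one cannot be told apart from that of the other, and p-values over hashtags measure only the spread between these 3 and 3 samples, which may be technical. For the other labelled group, Bmal1 bHLH, the contents of 3 of 3 files were the same as for Bmal1 WT, and they were left aside.

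The filtered libraries held 3978 Empty vector cells (median 5094 UMIs, unique molecular identifiers) and 2386 Bmal1 WT cells (median 7570.5 UMIs), of which 3222 and 1621 carried exactly 1 hashtag. The 2 libraries shared 3 cell barcodes. A cell was placed in a class when it held at least 3 distinct markers of that class and at least 1 more than of any other class, and none of the markers was a receptor studied here. Empty vector and Bmal1 WT gave 114 and 289 melanoma-like cells, 146 and 265 fibroblast-like cells, 1167 and 382 T-cell-like cells, 1081 and 404 NK-cell-like cells, 689 and 377 macrophage- or monocyte-like cells, and 357 and 223 dendritic-cell-like cells. Mast, endothelial, B and neutrophil gates held at most 17 cells a library, and 393 and 423 cells met no gate. The melanoma-like cells were led by neural crest and glial markers, with Sox10 at 187 CPM (UMIs scaled to a common total per sum) against 1.74 CPM in the other gated cells, while the pigment genes Mlana, Tyrp1 and Gpr143 were at 0 and Pmel, Dct, Tyr and Trpm1 held at most 7 UMIs each. The name melanoma-like therefore rests on the neural crest markers and not on pigment genes.

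Purity of the gates bears on each value that follows. Summed per hashtag, the 12 fibroblast markers were at 340 to 813 CPM in Empty vector melanoma-like cells and at 369 to 576 CPM in Bmal1 WT ones. In fibroblast-like cells the same list was at 16999 to 31241 CPM in Empty vector and at 7688 to 20882 CPM in Bmal1 WT, and 57 fibroblast-like cells, 6 of Empty vector and 51 of Bmal1 WT, lay in the cluster of melanoma cells. The 15 melanoma markers were at 29.2 to 39.7 CPM in Empty vector immune-like cells and at 24.9 to 82.5 CPM in Bmal1 WT ones, with Mlana, Tyrp1 and Gpr143 at 0. Of the melanoma-like cells, 38 of 114 in Empty vector and 88 of 289 in Bmal1 WT had under 1% mitochondrial UMIs. Among T-cell-like cells these were 3 of 1167 and 4 of 382. Outside the cluster of melanoma cells, in clusters given no class name, lay 37 Empty vector and 91 Bmal1 WT melanoma-like cells. The part of these admixtures and low-mitochondrial cells in the results was not tested beyond the alternative settings given further on.

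Nr1d1 (ENSMUSG00000020889) lies on the minus strand of chr11:98767932-98775333 in GRCm38, Nr1d2 (ENSMUSG00000021775) on the minus strand of chr14:18204054-18239127, and Rora (ENSMUSG00000032238) on the plus strand of chr9:68653786-69388246. Exons of Nr1d1 and of Thra, the thyroid hormone receptor gene on the opposite strand, share 263 bases (chr11:98768157-98768419). Whether strand was used in counting is not stated in these sources, so that reads from these bases cannot be assigned to one of the 2 genes with certainty, and Thra is given beside Nr1d1. The promoter windows of Nr1d1 and Nr1d2 are printed because both receptors were higher in every Bmal1 WT replicate of the melanoma-like cells. Each window holds 250 bases before and 50 bases after the RefSeq start (GRCm38.p6), is written 5′ to 3′ on the strand of the gene, and has its motif match in capitals.
Nr1d1 promoter, chr11:98775328-98775627, minus strand: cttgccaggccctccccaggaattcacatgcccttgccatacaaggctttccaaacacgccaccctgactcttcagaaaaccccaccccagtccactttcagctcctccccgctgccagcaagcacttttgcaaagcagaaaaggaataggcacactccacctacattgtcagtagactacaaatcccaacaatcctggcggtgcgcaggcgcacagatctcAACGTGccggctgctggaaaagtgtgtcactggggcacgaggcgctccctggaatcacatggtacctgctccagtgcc
Nr1d2 promoter, chr14:18239057-18239356, minus strand: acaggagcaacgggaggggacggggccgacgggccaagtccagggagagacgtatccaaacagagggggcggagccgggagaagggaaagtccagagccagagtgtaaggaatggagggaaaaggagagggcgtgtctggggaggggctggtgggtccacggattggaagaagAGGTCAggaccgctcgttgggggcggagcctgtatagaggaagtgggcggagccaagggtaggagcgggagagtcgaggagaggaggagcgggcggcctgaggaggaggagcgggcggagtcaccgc
Matches were sought on both strands. An E-box was the run CACGTG, which reads alike on either strand. Its variant was CACGTT, which reads as AACGTG on the opposite strand. A receptor half-site was AGGTCA. In the Nr1d1 window AACGTG began 28 bases before the start, and 4.68% of 32851 windows of the same length held this variant. In the Nr1d2 window AGGTCA began 77 bases before the start, and 16.3% of windows held it. CACGTG was in neither window, nor was any of the 3 motifs in the Rora window (chr9:68653536-68653835), and 7.15% of all windows held CACGTG. A match describes letters only, and no binding was measured in these files.

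Nr1d1, a strongly rhythmic gene in most tissues, was a transcript of melanoma-like and fibroblast-like cells and was low in the pooled immune-like cells, with 1 cluster of T cells described further on as an exception. Summed over a library, melanoma-like cells were at 9.15 CPM for Empty vector (45 UMIs, exact Poisson 95% interval 6.67 to 12.2) and at 37.2 CPM for Bmal1 WT (467 UMIs, 33.9 to 40.7). In fibroblast-like cells it was 37.5 CPM (108 UMIs, 30.8 to 45.3) and 21.9 CPM (173 UMIs, 18.7 to 25.4). Intervals of this kind cover counting error only. Immune-like cells as a whole were at 1.41 CPM (34 UMIs) in Empty vector and 1.25 CPM (18 UMIs) in Bmal1 WT. Empty vector NK-cell-like cells held 0 UMIs of Nr1d1 in 1081 cells, which allows a level of up to 0.486 CPM, and the Bmal1 WT ones held 3 UMIs in 404 cells. Each limit given for 0 UMIs is the level of 3 UMIs, and the exact Poisson 95% interval reaches higher.

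The share of cells with an Nr1d1 UMI was likewise lowest in immune-like cells. Among melanoma-like cells it was 20.2% for Empty vector and 43.6% for Bmal1 WT (median 18032.5 and 26617 UMIs), and 0.844% and 1.07% of immune-like cells (median 5285 and 7268.5 UMIs). With each cell thinned to 3000 UMIs, which left out 18 and 43 melanoma-like and 835 and 198 immune-like cells, the shares were 3.12% and 10.2% in melanoma-like cells and 0.443% and 0.498% in immune-like cells. No class was fixed in advance as lacking these receptors. The immune-like share is the lowest in these same data, so it is a point of comparison only and cannot test for background. The shares in fibroblast-like cells were 9.09% and 6.52% after thinning and 29.5% and 34.3% before it. These shares count cells, which are not replicates, and the thinned Empty vector melanoma-like share rests on few cells with a UMI.

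Nr1d2, the second REV-ERB gene, was spread over more classes. Over whole libraries, Empty vector and Bmal1 WT cells were at 49.6 and 37.5 CPM in the fibroblast-like class, 22.8 and 50.7 CPM in the melanoma-like class, 28.7 and 17.0 CPM in the T-cell-like class and 29.8 and 12.3 CPM in the NK-cell-like class. Myeloid cells held less, with 9.18 and 6.75 CPM in macrophage- or monocyte-like cells and 6.01 and 3.48 CPM in dendritic-cell-like cells. Thinned to 3000 UMIs, 5.21% and 17.5% of melanoma-like, 10.5% and 4.97% of NK-cell-like and 7.80% and 7.20% of T-cell-like cells held an Nr1d2 UMI, against 0.968% and 0.613% of dendritic-cell-like cells, the class with the lowest share. Before thinning these shares were 37.7% and 60.9%, 14.5% and 8.66%, 13.8% and 13.4%, and 5.88% and 4.04%.

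Rora was foremost a transcript of T cells and fibroblasts. Whole-library levels in Empty vector and Bmal1 WT were 212 and 187 CPM in T-cell-like cells, 168 and 91.9 CPM in fibroblast-like cells and 87.6 and 49.9 CPM in melanoma-like cells. NK-cell-like cells were at 31.3 and 20.9 CPM, macrophage- or monocyte-like cells at 15.8 and 16.1 CPM and dendritic-cell-like cells at 8.23 and 9.18 CPM. After thinning, 30.9% and 31.1% of T-cell-like, 33.1% and 28.7% of fibroblast-like and 19.8% and 12.6% of melanoma-like cells held a Rora UMI, against 2.90% and 3.07% of dendritic-cell-like cells. Before thinning these shares were 39.7% and 45.8%, 63.7% and 61.9%, 53.5% and 47.8%, and 5.60% and 3.59%.

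**Figure D1:**
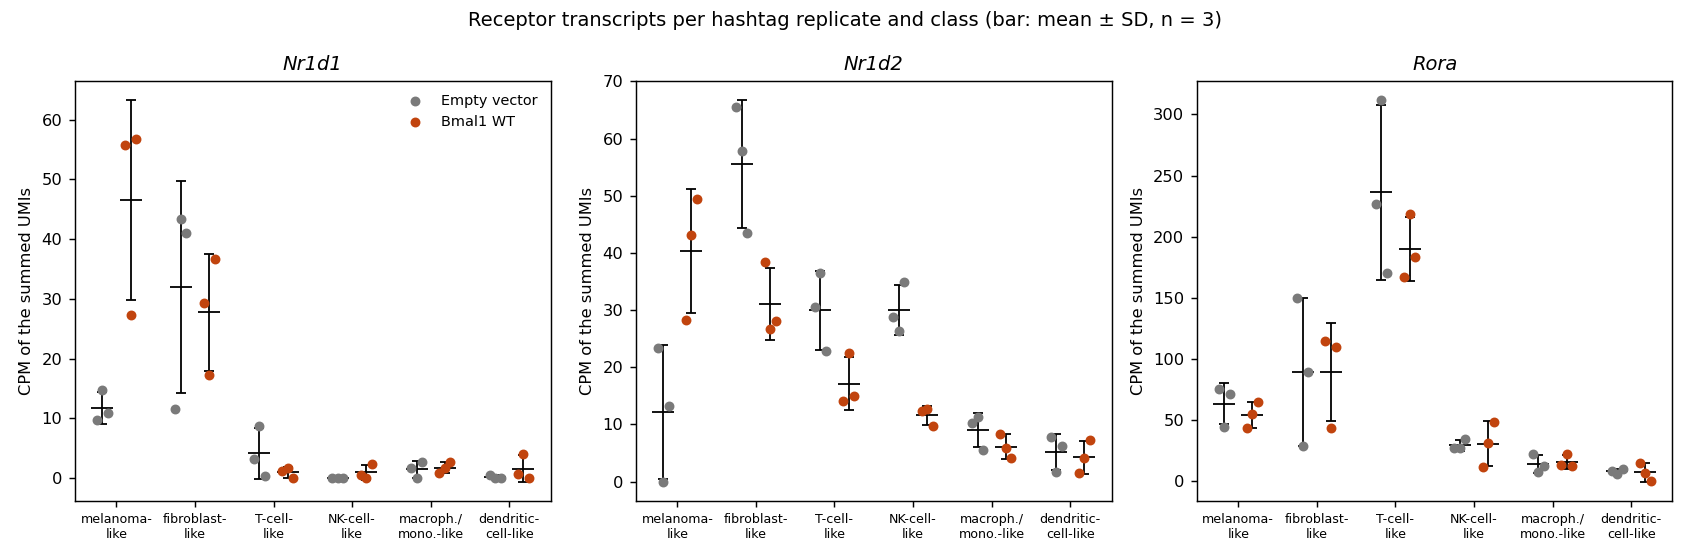
Level of Nr1d1, Nr1d2 and Rora (CPM of summed UMIs, linear axes, 1 panel a gene) in each hashtag replicate of the 6 larger classes, with points for replicates and bars for the mean and SD (n = 3 a group). Nr1d1 lies at 27.3 to 56.7 CPM in Bmal1 WT melanoma-like cells against 9.69 to 14.8 CPM in Empty vector, and Rora is highest in T-cell-like cells at 167 to 312 CPM.

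The class comparison was tested over the 6 hashtag replicates, each with its own melanoma-like, fibroblast-like and immune-like sum, by edgeR's quasi-likelihood test with the replicate as a block and Benjamini-Hochberg adjustment over all genes tested. Of the 3 receptors, Nr1d1 and Nr1d2 passed an adjusted p of 0.05 as higher in melanoma-like than in immune-like cells, in a comparison where 63.2% of 11610 genes passed. The log2 fold change of Nr1d1 was 4.12 (SE 0.44, edgeR adjusted p = 7.37e-06), and it was 3.65 to 4.57 when each replicate was left out in turn. For Nr1d2 it was 1.03 (SE 0.40, edgeR adjusted p = 0.0415), which lost its call without any 1 of the Bmal1 WT replicates (0.92, 0.79 and 0.72 without h3, h5 and h9), with TMM factors and with DESeq2. In Empty vector 2 of 3 replicates ran the other way for Nr1d2, with melanoma-like cells at 0 and 13.3 CPM in h7 and h8 against 20.6 and 18.9 CPM in immune-like cells, and in Bmal1 WT 3 of 3 replicates were higher in melanoma-like cells. Rora differed by -0.19 (SE 0.15, edgeR adjusted p = 0.294), and the immune-like sum joins T cells of high and myeloid cells of low level. That difference changed sign with clusters in place of gates (0.011) and with another hashtag assignment (0.040), and with DESeq2 it was -0.41 and passed.

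Fibroblast-like cells likewise stood above immune-like cells for both REV-ERB genes. The log2 fold change was 4.29 for Nr1d1 (SE 0.45, edgeR adjusted p = 1.44e-05) and 1.55 for Nr1d2 (SE 0.21, edgeR adjusted p = 0.000110), where 47.0% of 11278 genes passed. Rora differed by 0.26 (SE 0.33, edgeR adjusted p = 0.557). With clusters in place of gates Rora passed as higher in fibroblasts (edgeR adjusted p = 0.0235), and so it did when cells with 3 or more markers of a second class were left out (0.77).

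Between melanoma-like and fibroblast-like cells none of the 3 receptors passed, in a comparison where 12.5% of 9181 genes did. Fitted log2 fold changes were 0.04 for Nr1d1 (SE 0.40), -0.50 for Nr1d2 (SE 0.42) and -0.56 for Rora (SE 0.27), with edgeR adjusted p of 0.977, 0.527 and 0.232. For Nr1d1 the fit averages replicates of opposite sign. It was lower in melanoma-like than in fibroblast-like cells in 3 of 3 Empty vector replicates and higher in 3 of 3 Bmal1 WT replicates, whose values are given with the group comparisons. The errors do not show that the classes were alike, and the sign for Nr1d1 turned under 5 alternative settings and without any 1 of the Bmal1 WT replicates. With clusters in place of gates, Rora was lower in melanoma cells by a log2 fold change of -1.10 and passed. Thra, which shares bases with Nr1d1, was likewise higher in melanoma-like and fibroblast-like than in immune-like cells, with log2 fold changes of 3.34 and 3.45, so the order of classes for Nr1d1 was also that of its neighbour.

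The comparison of Bmal1 WT with Empty vector asks whether receptor transcripts differ between the labelled groups, class by class. The labels name the vector of the melanoma line and do not state that immune or fibroblast-like cells carried it. In those classes the comparison is therefore between libraries, not between cells with and without the vector. In melanoma-like cells Nr1d1 was at 9.69 CPM (h1, 17 UMIs), 14.8 CPM (h7, 1 UMI) and 10.9 CPM (h8, 18 UMIs) in Empty vector. In Bmal1 WT it was at 55.7 CPM (h3, 59 UMIs), 27.3 CPM (h5, 102 UMIs) and 56.7 CPM (h9, 79 UMIs). Each Bmal1 WT replicate lay above each Empty vector replicate, with means of 46.6 ± 16.7 and 11.8 ± 2.67 CPM (SD, n = 3 each). The h7 value rests on 4 melanoma-like cells and a single UMI. The 15 melanoma markers also moved with the groups in this class, at 1612 to 2531 CPM in Empty vector and 1139.6 to 1576 CPM in Bmal1 WT without overlap, and their part in the receptor values was not tested. The groups also did not overlap for Nr1d2, which stood at 23.4 CPM (h1, 41 UMIs), 0 CPM (h7, 0 UMIs, which allows a level of up to 44.4 CPM) and 13.3 CPM (h8, 22 UMIs) in Empty vector. Its Bmal1 WT values were 28.3 CPM (h3, 30 UMIs), 43.1 CPM (h5, 161 UMIs) and 49.5 CPM (h9, 69 UMIs). The limit for h7, the level of 3 UMIs, lies above the lower Bmal1 WT values, and the exact interval reaches higher. The separation for Nr1d2 therefore rests on h1 and h8. Rora overlapped between the groups, at 75.2, 44.4 and 71.4 CPM in h1, h7 and h8 and at 43.5, 55.4 and 64.6 CPM in h3, h5 and h9.

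Of the 3 receptors, 2 thus had groups without overlap in melanoma-like cells, a property of 9.43% of the 8206 genes tested there. With 3 against 3 samples the exact permutation test, two-sided, gave p = 0.10 for both, the smallest value this design allows. In the fit over all genes the log2 fold change was 2.12 for Nr1d1 (SE 0.41, unadjusted p = 0.000544, edgeR adjusted p = 0.9999), rank 3 by p among the 8206 genes. It was 1.24 for Nr1d2 (SE 0.43, unadjusted p = 0.0171 by edgeR) and -0.35 for Rora (SE 0.27, unadjusted p = 0.220 by edgeR). No gene passed the adjusted threshold (0% of 8206), and 264 had an unadjusted p under 0.05. Nr1d1 kept a log2 fold change between 1.94 and 2.41 without each replicate in turn, and it passed with no filter on genes (2.12, edgeR adjusted p = 0.0138). DESeq2 called 4 genes in this comparison, and Nr1d1 was not among them.

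Thra did not move with Nr1d1 in these cells. It was at 53.0, 59.2 and 45.4 CPM in the Empty vector replicates and at 48.2, 36.7 and 61.0 CPM in the Bmal1 WT ones, a log2 fold change of -0.06 (SE 0.29). Arntl, the gene of BMAL1 itself, was at 55.3, 104 and 52.6 CPM in Empty vector and at 41.6, 69.6 and 63.2 CPM in Bmal1 WT, and the fitted difference was -0.02 on the log2 scale (SE 0.32). A vector transcript with another 3' end would not be counted by this chemistry, so that Arntl does not check the labels.

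In fibroblast-like cells Nr1d1 did not follow the melanoma-like pattern. Its 3 Empty vector replicates were at 11.6, 43.3 and 41.1 CPM (3, 9 and 17 UMIs) and its Bmal1 WT replicates at 29.3, 17.3 and 36.7 CPM (29, 22 and 17 UMIs), and the groups overlapped. With 97 UMIs in all it fell under the minimum of 100 UMIs and was not tested, and the whole-library log2 ratio was -0.78 (counting interval -1.13 to -0.42). Nr1d2 was at 65.5, 57.8 and 43.5 CPM in Empty vector and at 38.4, 26.8 and 28.0 CPM in Bmal1 WT. These groups did not overlap (exact permutation p = 0.10, two-sided), as for 15.3% of the 5400 genes tested, and the log2 fold change was -0.81 (SE 0.36, edgeR adjusted p = 0.489). Rora ranged widely within each group, from 28.9 to 150.2 CPM in Empty vector and from 43.3 to 115.2 CPM in Bmal1 WT, and the fitted log2 fold change of -0.03 (SE 0.54) had a sign that turned under several settings. No gene passed in fibroblast-like cells (0% of 5400, with 546 at an unadjusted edgeR p under 0.05), which rested on 8 to 26 cells a replicate. Marker sums shifted with the groups here, with overlapping ranges. Macrophage markers were at 9.63 to 611 CPM in Empty vector and at 4.73 to 19.4 CPM in Bmal1 WT, neutrophil markers at 77.0 to 1396 and 23.6 to 84.9 CPM, and fibroblast markers at the levels given above. Their part in these values was not tested.

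In the pooled immune-like cells, whose makeup moved with the groups as given with Rora below, Nr1d2 was the receptor that passed. It was at 19.96 CPM (h1, 185 UMIs), 20.6 CPM (h7, 100 UMIs) and 18.9 CPM (h8, 142 UMIs) in Empty vector and at 9.78 CPM (h3, 70 UMIs), 11.4 CPM (h5, 45 UMIs) and 8.57 CPM (h9, 21 UMIs) in Bmal1 WT. Each Bmal1 WT replicate lay below each Empty vector replicate, as for 32.3% of the 10621 genes tested. The log2 fold change was -0.98 (SE 0.14, edgeR adjusted p = 0.0421), so that Nr1d2 fell in a comparison where 4.08% of genes passed. The call was lost without any 1 of the 6 replicates, with log2 fold changes of -1.08 to -0.92 and edgeR adjusted p of 0.0595 to 0.133, and the number of genes called then went from 433 to 0. Arntl and Thra were also lower in these cells without overlap of the groups, and neither passed. Their log2 fold changes were -0.54 (SE 0.18, edgeR adjusted p = 0.112) and -0.57 (SE 0.25, edgeR adjusted p = 0.195).

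Rora in immune-like cells was at 87.5, 92.6 and 70.1 CPM in Empty vector and at 49.9, 77.4 and 57.1 CPM in Bmal1 WT. Fitted, the log2 fold change was -0.44 (SE 0.18, edgeR adjusted p = 0.171) and the groups overlapped. The makeup of the immune-like sum moved with the groups. T-cell-like cells were 1167 of its 3317 Empty vector cells and 382 of its 1402 Bmal1 WT cells, and NK-cell-like cells were 1081 and 404. Summed T cell markers were at 1540 to 2105 CPM and 1378 to 1415 CPM, and NK cell markers at 1088 to 1698 CPM and 803 to 1112 CPM. Nr1d1 had 50 UMIs over the 6 replicates and was not tested there.

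Single immune classes were then compared, and Nr1d2 reached the minimum of 100 UMIs in both lymphocyte classes. NK-cell-like cells were at 28.9, 26.4 and 34.8 CPM (48, 43 and 66 UMIs) in Empty vector and at 12.4, 12.6 and 9.75 CPM (24, 8 and 4 UMIs) in Bmal1 WT, without overlap, which held for 18.9% of 7263 genes. In the fit the log2 fold change was -1.32 (SE 0.28, unadjusted p = 0.000276, edgeR adjusted p = 0.0668), and it missed the threshold that 0.138% of genes passed. It passed with no filter on genes (edgeR adjusted p = 0.00676) and without the Empty vector replicate h7 (-1.41, edgeR adjusted p = 0.0424). T-cell-like cells were at 30.6, 36.5 and 22.8 CPM (93, 46 and 57 UMIs) in Empty vector and at 14.1, 22.5 and 14.9 CPM (24, 26 and 9 UMIs) in Bmal1 WT. The closest replicates of the 2 groups were 22.8 and 22.5 CPM, and 27.9% of 8288 genes had groups without overlap. Among the T cells, the Cd8a or Cd8b1 cells overlapped, at 17.3 to 24.2 CPM in Empty vector against 11.8 to 20.6 CPM in Bmal1 WT. Over all T-cell-like cells the log2 fold change was -0.77 (SE 0.26, edgeR adjusted p = 0.144). With clusters in place of gates it was -1.07 and passed (edgeR adjusted p = 0.0390). The Cd8a or Cd8b1 cells alone were not fitted. No gene passed in T-cell-like cells (0% of 8288, with 1737 at an unadjusted edgeR p under 0.05).

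Myeloid cells gave too few UMIs for most tests. In macrophage- or monocyte-like cells Nr1d2 was at 10.2, 11.3 and 5.56 CPM in Empty vector and 8.37, 5.86 and 4.13 CPM in Bmal1 WT, and the 76 UMIs were not tested. Those with Ly6c2 did not overlap, at 6.15 to 8.99 CPM in Empty vector against 2.81 to 6.05 CPM in Bmal1 WT (exact permutation p = 0.10, two-sided). The closest replicates were 6.15 and 6.05 CPM, and the libraries held 32 and 10 Nr1d2 UMIs in these cells. A share of all genes without overlap was not computed for this subset, and in the whole class it was 20.3% of 7149 genes. No test showed the lower Nr1d2 level to be particular to lymphocytes. Rora in all macrophage- or monocyte-like cells was at 22.1, 7.55 and 12.2 CPM and at 13.5, 22.6 and 12.4 CPM. Its log2 fold change was 0.08 (SE 0.40, edgeR adjusted p = 0.953). In dendritic-cell-like cells all 3 receptors were under 100 UMIs, with Nr1d2 between 1.75 and 7.77 CPM in Empty vector and between 1.47 and 7.23 CPM in Bmal1 WT. Neither class had a gene that passed (0% of 7149 and 0% of 6911, with 1000 and 1034 at an unadjusted edgeR p under 0.05). Rora missed the threshold in T-cell-like (-0.31, SE 0.21, edgeR adjusted p = 0.424) or NK-cell-like cells (-0.25, SE 0.38, edgeR adjusted p = 0.807) either.

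**Figure D2:**
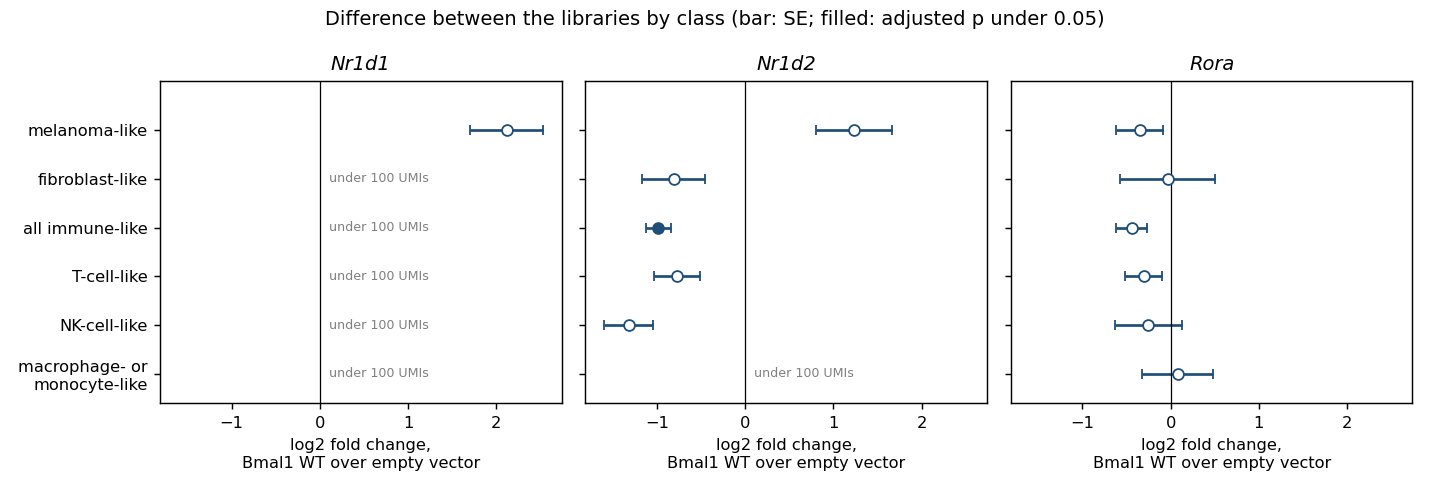
Fitted log2 fold change of each receptor, Bmal1 WT over Empty vector, in 6 cell groups (horizontal axis, log2 scale), with bars for the SE and filled points for an edgeR adjusted p under 0.05. Nr1d2 lies to the right of 0 in melanoma-like cells (1.24) and to the left in immune-like (-0.98), T-cell-like (-0.77), NK-cell-like (-1.32) and fibroblast-like cells (-0.81).

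Nr1d2 therefore had estimates of opposite sign in melanoma-like and immune-like cells, and the difference between the 2 changes was tested as an interaction over the 12 sums. It was 2.19 for Nr1d2 on the log2 scale (SE 0.48, unadjusted p = 0.000754, edgeR adjusted p = 0.457), 2.07 for Nr1d1 (SE 0.73, unadjusted p = 0.0161 by edgeR) and 0.03 for Rora (SE 0.32). None passed after adjustment, while 1 of 11610 genes did (0.00861%) and 620 had an unadjusted p under 0.05. With no filter on genes the difference for Nr1d2 passed (edgeR adjusted p = 0.00947).

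T cells were divided further by single markers, since Rora marks some of their lineages. Foxp3 cells, which carry the regulatory T cell factor, were at 348 CPM of Rora in Empty vector and at 294 CPM in Bmal1 WT (69 and 39 cells). Cells with Trdc, Il17a, Cd163l1 or Blk, markers of gamma-delta and IL-17 T cells, were at 367 and 302 CPM (123 and 23 cells). Other Cd4 cells were at 359 and 282 CPM (221 and 63 cells) and Cd8a or Cd8b1 cells at 103 and 139 CPM (459 and 180 cells). In each library the CD8 cells thus held the least Rora of these 4 groups. By replicate, CD8 cells ranged from 90.0 to 115 CPM in Empty vector and 103 to 151 CPM in Bmal1 WT, below all 6 values of the Foxp3 cells (260 to 398 CPM) and of the other Cd4 cells (233 to 511 CPM). The gamma-delta and IL-17 set varied most, at 819, 362 and 138 CPM in h1, h7 and h8 and at 0, 583 and 313 CPM in h3, h5 and h9. The Bmal1 WT values of that set come from 7 or 8 cells a replicate.

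The same T cell set held 11 of the 23 Nr1d1 UMIs of Empty vector T-cell-like cells (14.2 CPM). It held 0 in Bmal1 WT, where 23 cells allow a level of up to 17.1 CPM, above the Empty vector level. Nr1d2 in this set was at 43.9 and 22.8 CPM. By replicate Nr1d2 was at 106, 44.7 and 9.86 CPM in h1, h7 and h8, so the Empty vector replicates differed among themselves by more than the libraries did.

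Unsupervised clusters of all cells gave a finer view, which is a description only. Rora was highest in the cluster led by Il17a, S1pr1, Icos and Il7r, at 714 CPM in Empty vector (715 UMIs) and 422 CPM in Bmal1 WT (116 UMIs). The cluster led by the mast cell protease genes Mcpt2 and Mcpt1 with Tpsb2 and Cpa3 followed at 323 and 362 CPM. Of its 180 Empty vector and 58 Bmal1 WT cells, 206 passed the T cell gate, and Il1rl1, Il10 and Il2ra were also among its 10 leading genes, so its level cannot be read as that of mast cells. The one led by Cd8b1, Gzmk and Cd8a was at 199 and 209 CPM. The fibroblast cluster led by Dcn was at 187 and 154 CPM. At the other end, the cluster led by Xcr1 and Clec9a, markers of cross-presenting dendritic cells, was at 3.05 CPM in Empty vector (2 UMIs) and held 0 Rora UMIs in 122 Bmal1 WT cells. In Empty vector Nr1d2 also peaked in the Il17a cluster, at 75.9 CPM. In Bmal1 WT that cluster was at 32.7 CPM of Nr1d2, and the highest level was 47.5 CPM in the Nrcam cluster. The Il17a cluster held 20 Nr1d1 UMIs in Empty vector (19.96 CPM) and 0 in Bmal1 WT. The Dcn cluster was at 42.0 and 30.9 CPM of Nr1d1, the melanoma cluster led by Nrcam and Klk6 at 9.26 and 33.5 CPM, and the cluster led by Serpinb2 and Cavin2 at 7.66 and 20.3 CPM.

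**Figure D3:**
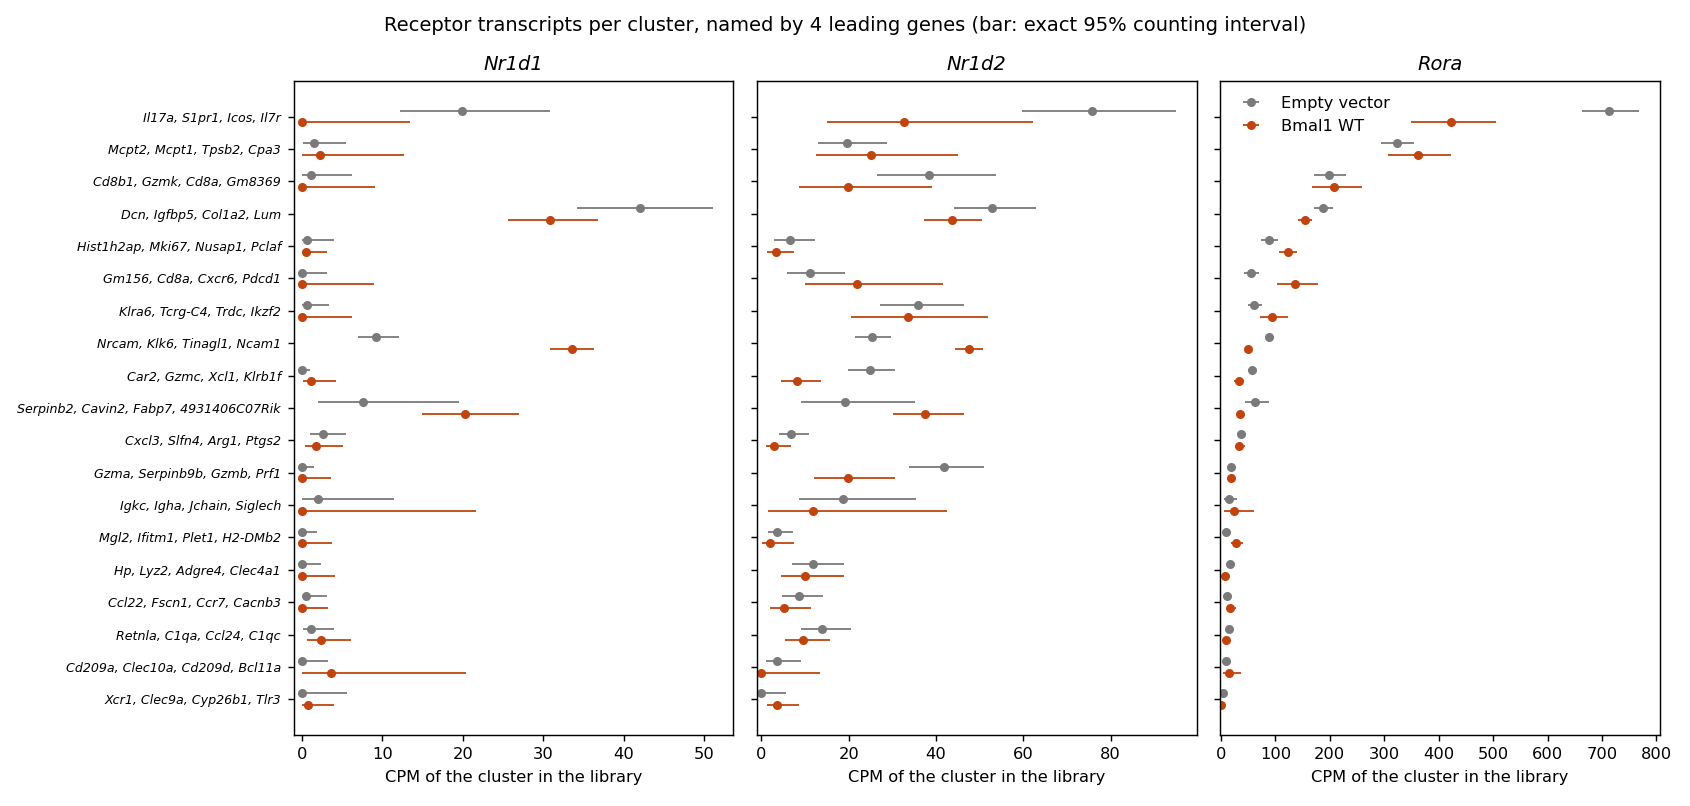
Level of each receptor in the 19 clusters (CPM of summed UMIs per library, with exact Poisson 95% intervals), ordered by the Rora level and named by leading genes. The Il17a cluster is at the top for Rora, with 714 CPM in Empty vector cells and 422 CPM in Bmal1 WT cells, while Nr1d1 is high in the Dcn cluster and, in Bmal1 WT, in the Nrcam cluster.

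The profile of each receptor was compared with those of 9738 genes over 12 class-by-library sums, as a description whose points share libraries and depth. Nearest to Nr1d1 were Cyr61 (Pearson r = 0.963), Srgap1 (0.960) and Nkd2 (0.959). Nearest to Nr1d2 were Gsk3b (0.939), Jmy (0.934) and Rhot1 (0.933), and nearest to Rora were Ift80 (0.946), Trib2 (0.945) and Polg (0.935).

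Other clock genes were examined as a list of 18 that left out the receptors. In melanoma-like cells, 0 of the 15 tested passed between Bmal1 WT and Empty vector, beside 0% of all 8206 genes. Of the 15, 10 had higher and 5 lower estimates, and their median log2 fold change was 0.15 beside 0.01 over all genes. The smallest p-values belonged to the period genes Per3 (1.59, SE 0.64) and Per1 (1.13, SE 0.45), repressors of BMAL1 and CLOCK, and to Bhlhe40 (-0.75, SE 0.37), another repressor. In immune-like cells 0 of 15 passed, beside 4.08% of all genes. Of these, 4 had higher and 11 lower estimates, and the median was -0.15 beside -0.09. The smallest p-values there were those of Bhlhe40 (-0.47, SE 0.14, edgeR adjusted p = 0.0850), the cryptochrome gene Cry1 (-0.47, SE 0.14) and Tef (-0.83, SE 0.26), a bZIP activator of clock output. All 11 tested in T-cell-like cells and all 9 in NK-cell-like cells had lower estimates in Bmal1 WT, with medians of -0.40 and -0.27 beside -0.09 and -0.10. None passed in either class, beside 0% and 0.138% of all genes. In fibroblast-like cells 0 of 9 passed, beside 0% of all genes, and the median was 0.11 beside -0.04. Where no gene passed at all, a count of 0 does not set the clock genes apart.

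**Figure D4:**
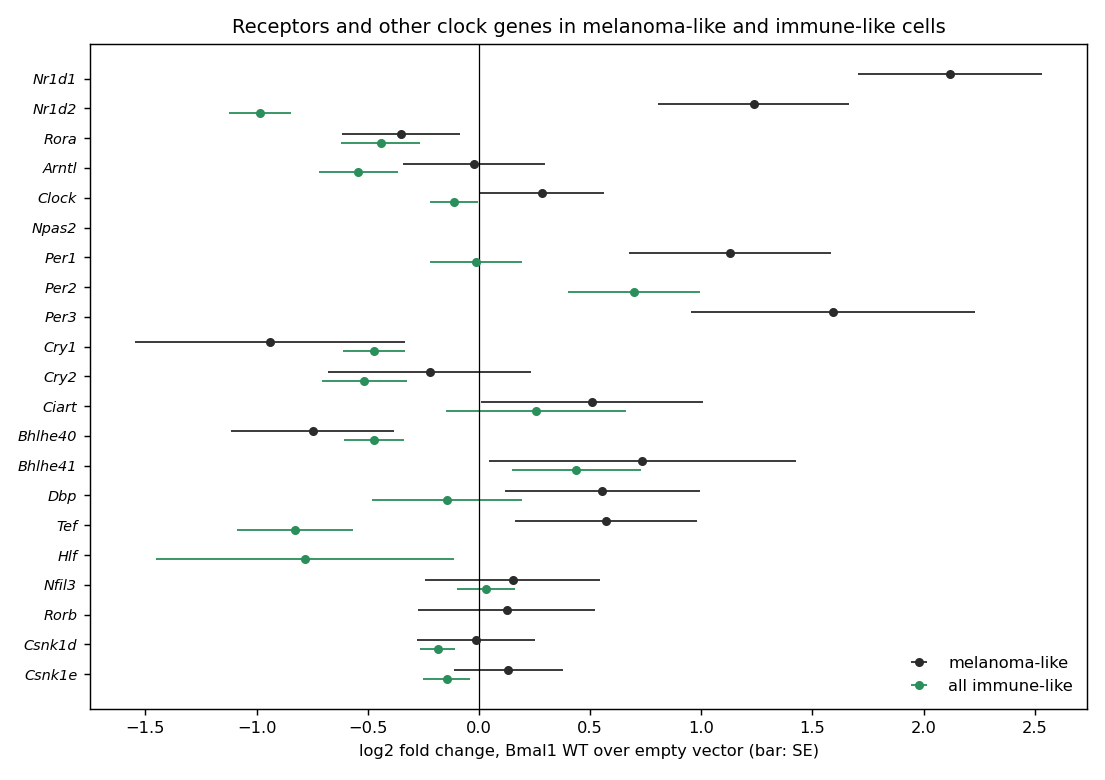
Fitted log2 fold change, Bmal1 WT over Empty vector, of the 3 receptors and the 18 clock genes in melanoma-like (black) and immune-like cells (green), on a log2 axis with bars for the SE; genes under the minimum of 100 UMIs have no point. Nr1d1 (2.12), Per3 (1.59), Nr1d2 (1.24) and Per1 (1.13) lie farthest to the right in melanoma-like cells, and Nr1d2 (-0.98) farthest to the left in immune-like cells.

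Between classes more of the clock genes passed, as did more of all genes. In melanoma-like against immune-like cells 13 of 17 passed, beside 63.2% of all genes, with 9 higher and 4 lower, and the median was 1.16 beside 0.02 over all genes. Rorb, the ROR gene of the nervous system, was higher by 7.46, the clock output gene Dbp by 2.51 and Arntl by 2.04. The bZIP repressor Nfil3 (-2.98), Per1 (-1.90), Bhlhe40 (-1.33) and the kinase gene Csnk1d (-0.77) were lower. Fibroblast-like cells against immune-like cells gave 11 of 17, beside 47.0% of all genes, 8 higher and 3 lower, with Rorb at 5.35 and Bhlhe41 at 3.76. Between melanoma-like and fibroblast-like cells 2 of 15 passed, near the 12.5% of all genes, namely Rorb (1.99) and Bhlhe41 (-1.58).

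The partners through which REV-ERB represses were examined through the complex genes Ncor1, Hdac3, Tbl1x, Tbl1xr1 and Gps2, which were all tested in both comparisons of Bmal1 WT with Empty vector. None of the 5 passed in melanoma-like cells (median 0.16 beside 0.01), beside 0% of all genes. In immune-like cells none of them passed either (median -0.15 beside -0.09), beside 4.08% of all genes. Tbl1xr1 came closest there at -0.33 (SE 0.08, edgeR adjusted p = 0.0588). Between melanoma-like and immune-like cells 3 of 5 passed, near the 63.2% of all genes, with Tbl1xr1 (-0.88), Gps2 (-0.61) and Ncor1 (-0.44) lower. Of 6 genes that REV-ERB is known to repress in macrophages (Ccl2, Cx3cr1, Mmp9, Il6, Il1b and Nlrp3), 0 passed in macrophage- or monocyte-like cells, beside 0% of all genes. There were 3 higher and 3 lower estimates and a median of 0.02 beside -0.03. The largest among them was Mmp9 at 5.25 (SE 1.73, edgeR adjusted p = 0.252), a gene that was also 1 of the 7 neutrophil markers. Summed over that list, the same macrophage- or monocyte-like cells were at 60.8 to 98.1 CPM in Empty vector and at 25.9 to 1011 CPM in Bmal1 WT, and the part of neutrophil transcripts in the Mmp9 value was not tested.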

How the data were processed

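The authors deposited raw UMI counts per gene and cell barcode (10x Genomics 3' chemistry, Cell Ranger 6.1.2, mm10 per the labels and file headers), not normalized, for 31053 genes and 3 hashtags a library. Barcodes were kept from 200 detected genes upward and up to a mitochondrial share (13 genes) of 20%. Hashtags were called with a 2-component Gaussian mixture on log counts (minimum 17 to 159), and cells with 1 hashtag entered a replicate. Doublets were not called by expression, and cells with several hashtags (368 Empty vector, 105 Bmal1 WT) entered no replicate. Classes came from per-cell marker gates. A second class reached 3 markers in 534 and 387 cells, and 398 and 280 gated cells lay within 1 marker of the rule. UMIs were summed per class and hashtag, and every gene reaching 100 UMIs across a fit was tested with edgeR 4.0.16 (R 4.3.3, quasi-likelihood, total-UMI scaling, Benjamini-Hochberg over all genes tested). CPM is the UMI count scaled by the total of the sum. SE is the log2 fold change divided by the square root of F. Fits of classes against each other had the hashtag as a block, since both sums of a hashtag come from the same replicate. The fits were tested on simulated counts, with changes placed only in genes well above the UMI minimum. In melanoma-like cells between the groups, 57% of 2-fold and 99% of 4-fold changes were recovered. Between melanoma-like and immune-like cells it was 84% and 100%, and for the difference of changes 7% and 89%. A missed threshold, above all for the difference of changes, therefore does not show that a receptor was unchanged. Clusters were made in scanpy 1.11.5 (Python 3.11.15) from 2000 variable genes, 30 components and 15 neighbours, at Leiden resolution 1. Coordinates are from GENCODE M21 (GRCm38), where 3 of 3 receptor identifiers matched, and promoters from RefSeq.

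The depth was 34232927 gene UMIs in Empty vector and 39561569 in Bmal1 WT. The receptors and gene lists were chosen with earlier results of these data known. Named genes were the receptors, Arntl, Thra, and of each list those that passed, or else the 3 with the smallest p. Some genes of the lists and of the T cell marker sets are not reported here and were left out after values were seen. Alternatives were other cell and gene filters, TMM factors, DESeq2 1.42.0, stricter gates, clusters, another hashtag assignment, fits without the block, each replicate left out, and cells without a hashtag. Leaving out cells with markers of a second class, and cells without a hashtag taken alone, were added after seeing the data. The Bmal1 bHLH parts were not analysed, as they were copies of Bmal1 WT.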

Additional observations from a re-analysis of the deposited data

Results flagged for a closer look

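Cells that entered no test carried the same receptors at different levels in the 2 libraries. In melanoma-like cells without a hashtag, the Bmal1 WT level over the Empty vector level was 5.74-fold for Nr1d1 (226 against 8 UMIs) and 1.55-fold for Nr1d2 (374 against 49 UMIs). In cells that met no gate the ratio was 8.90-fold for Nr1d1 (110 against 7 UMIs) and 1.97-fold for Nr1d2 (153 against 44 UMIs). These 4 ratios are listed because the counting interval lay above 1 in cells outside the comparisons of the report. The rule took rises only. Counting intervals also lay wholly below 1 for Nr1d1 (0.519-fold) and Rora (0.503-fold) in fibroblast-like cells without a hashtag. The same held for Rora in melanoma-like cells without a hashtag (0.342-fold) and in cells that met no gate (0.622-fold). Each compares 2 libraries and was not tested. For the cells that met no gate and carried a hashtag, the replicates of Nr1d1 were at 0 to 9.57 CPM in Empty vector and 18.9 to 23.9 CPM in Bmal1 WT. They did not overlap (exact permutation p = 0.10, two-sided, the smallest value this design allows). A share of all genes without overlap was not computed for these cells. Of the 7 Empty vector UMIs of Nr1d1, 2 lay in cells without a hashtag, so its replicates rest on very few UMIs. The replicates of Nr1d2 overlapped, at 7.17 to 41.4 CPM and 14.9 to 37.9 CPM (exact permutation p = 0.70, two-sided), so the library ratio for Nr1d2 was not borne out by them. The melanoma-like cells without a hashtag have no replicates. Of the cells without a gate, 18 Empty vector and 62 Bmal1 WT cells lay in the cluster of melanoma cells. Under 1% mitochondrial UMIs were 80 of the 393 Empty vector and 218 of the 423 Bmal1 WT cells without a gate. The cluster led by Serpinb2 and Cavin2 held 127 Empty vector and 311 Bmal1 WT cells, 280 of them without a gate. The part of these differences in the ratios was not tested.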

How the results depend on the processing

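Of 407 values of the receptors under alternative settings, 347 counted as unchanged. For a fit this means the same direction and side of the threshold. For a library ratio, which has no p-value, it means the same direction and a distance under 1 SE from the main fit. With no filter on genes, Nr1d1 in melanoma-like cells (2.12), Nr1d2 in NK-cell-like cells (-1.32) and the difference of changes for Nr1d2 (2.19) passed, and with clusters Nr1d2 in T-cell-like cells did (-1.07). Nr1d2 in immune-like cells passed in no fit that left out a replicate (-1.08 to -0.92), and in NK-cell-like cells it passed only without Empty vector h7 (range -1.41 to -1.20). In melanoma-like against immune-like cells, Nr1d2 missed the threshold with TMM factors (0.91), with DESeq2 (0.67) and without any 1 Bmal1 WT replicate (range 0.72 to 1.37), and Rora was -0.41 and passed with DESeq2, 0.011 with clusters and 0.040 with centred log hashtag counts. Rora passed with clusters in melanoma-like (-1.10) and immune-like (1.0045) comparisons with fibroblast-like cells, and in the latter with mixed cells left out (0.77). Nr1d1 in melanoma-like against fibroblast-like cells reversed with TMM factors (-0.015), DESeq2 (-0.13), clusters (-0.31), centred log counts (-0.11) and mixed cells left out (-0.29), and ran from -0.21 to 0.44 without each replicate. Rora between the groups in fibroblast-like cells reversed with TMM factors (0.013), DESeq2 (0.015), low-mitochondrial cells left out (0.13) and clusters (0.85), and without Empty vector h1 (0.51) or Bmal1 WT h5 (range -0.42 to 0.51). In NK-cell-like cells Rora was 0.00196 with DESeq2 and ran from -0.69 to 0.38 without each replicate. In macrophage- or monocyte-like cells it was -0.25 with clusters, -0.016 with 1 more marker, and -0.23 to 0.24 without each replicate. The difference of changes for Rora was -0.016 with no filter on cells, -0.18 with clusters, -0.58 with centred log counts, -0.48 with mixed cells left out, and -0.15 to 0.22 without each replicate. Over all cells of a class the library ratio was -0.81 for Rora in melanoma-like cells and, in fibroblast-like cells, -0.40 for Nr1d2 and -0.87 for Rora. In cells without a hashtag it was 0.63 for Nr1d2 and -1.55 for Rora in melanoma-like cells, -0.21 and -0.99 in fibroblast-like cells, -1.65 and -1.34 in immune-like cells, and -1.62 and -1.15 in NK-cell-like cells. The cause of these shifts was not tested. The number of genes called moved with the setting, from 0 to 768 in immune-like, 0 to 683 in T-cell-like, 0 to 226 in NK-cell-like, 0 to 36 in melanoma-like and 0 to 391 in fibroblast-like cells, and from 619 to 2945 between melanoma-like and fibroblast-like cells. Scaling moved the median of all genes between melanoma-like and immune-like cells from 0.02 to -0.10 with TMM factors and -0.21 with DESeq2.

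Without the replicate block, Nr1d1 in melanoma-like against immune-like cells was 4.38 and Nr1d2 1.03, and no call on a receptor changed. No paired analysis was possible because the hashtags of Empty vector and Bmal1 WT share no number. Leaving out a replicate left fewer than 100 UMIs in some fits, so 4 of 6 values were available for Nr1d2 in fibroblast-like cells and 5 of 6 for Rora in macrophage- or monocyte-like cells. Hashtag sums of 4 to 53 melanoma-like cells and of 8 to 26 fibroblast-like cells limit the precision of those classes.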

Other observations

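Small classes are given as values only. The 17 mast-cell- or basophil-like cells of Empty vector held 2 Nr1d2 UMIs and 0 of Rora and Nr1d1, the 7 neutrophil-like cells of Bmal1 WT held 0 UMIs of each receptor, and the 10 B-cell-like cells held 3 Nr1d2 UMIs and 0 of the others. In the 7 endothelial-like cells of Bmal1 WT, 1 cell held all 9 Rora UMIs. A set of dendritic cells had at least 2 of the markers Ccr7, Fscn1 and Ccl22 and neither Xcr1 nor Clec9a. Its Rora level was 17.7 and 10.5 CPM in Empty vector and Bmal1 WT. Dendritic cells with Xcr1 or Clec9a but fewer than 2 of those markers were at 6.97 and 0.758 CPM (1 UMI in Bmal1 WT). Among macrophage- or monocyte-like cells, those with C1q genes were at 7.83 and 14.5 CPM of Rora and those with Ly6c2 at 17.4 and 10.1 CPM. Cells without a gate held Rora at 115 and 71.5 CPM. None of these differences was tested.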
